A study of Mus musculus with 64 samples.

Results

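Transposon insertions were examined in the genes of 8 transcription factors of the B lineage, Pax5, Tcf3, Tcf4, Foxo1, Foxp1, Bach2, Bcl11a and Id3. The genes were chosen by name as factors of B-cell development, with earlier results of these data known. An insertion was assigned to a gene where the deposited table names that gene for it. In total, 544 of 385883 lines (0.141%) named one of them. Lines were found for 7 of the 8 genes, out of 17126 gene names in the table, and none named Id3. After positions were matched to the transposon's target motif and repeated lines of a sample were merged, 540 insertions were left, and each of the 64 samples had at least 1.

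The mice carried a transposon array of the ITP lines together with a transposase knocked into the Rosa26 locus, either PiggyBac (PB) or Sleeping Beauty (SB), and their Blm m3 alleles were shared by tumour and control samples alike. PB inserts at TTAA and SB at TA. The Rosa26 transposase is constitutive and not restricted to B cells, so insertions arise in all tissues. The tail of a mouse shows where copies land in tail cells without a tumour. Tumour and tail thus differ in cell type as well, and the design does not separate the effects of tumour and cell type. The authors mention that insertion behaviour might depend on cell type, which was not tested here. The 30 PB tumours (labelled IMPB) and 11 SB tumours (IMSB) came from spleen, lymph nodes, mesenteric and gut masses, 1 SB thymus and like sites of mice with diffuse large B-cell lymphoma, and were set against 12 PB tails and 11 SB tails. The ITP1-C and ITP2-M lines were used for SB, on a mixed C57BL/6, 129Sv and FVB background. Ages were not given in the sources used here. The measured molecule was genomic DNA, so the labelled tissues could not be checked against expressed markers, and an insertion does not by itself show what happens to the gene's RNA.

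Samples held 757 to 10800 insertions each, with 55502 to 5721832 reads behind them. PB tumour 3, a spleen, stood apart with the highest value of both. Low read numbers moved with the comparison. The median share of insertions with fewer than 10 reads was 55.2% in PB tumours and 22.2% in PB tails, against 30.5% in SB tumours and 26.2% in SB tails. Their part in the results was not tested beyond the counts with at least 10 reads given below. PCR reads are not independent molecules, and intervals given here cover counting error only.

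These factors act in sequence. E proteins, of which Tcf3 and Tcf4 encode members, are basic helix-loop-helix proteins that bind E-box DNA as dimers and switch on the first B-lineage genes. Id3 lacks the DNA-binding part and holds E proteins off DNA. Foxo1, a forkhead factor kept out of the nucleus by AKT signalling, works with E proteins at Il7r and the Rag genes and is needed again in the germinal centre. Pax5 then commits cells to the B lineage. Foxp1, a forkhead repressor, and Bcl11a, a zinc finger protein, are both required in early B-cell development. Bach2 represses Prdm1 and so delays plasma cell differentiation. In human lymphoma, FOXO1, PAX5, TCF3, ID3, FOXP1 and BACH2 are known targets of mutation or rearrangement.

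Most of the sites below were picked because they were hit in more than 1 tumour and in no tail. The Pax5 site at chr4:44673216-44673275 was the most covered Pax5 insertion. Of 24 PB positions of members hit in more than 1 sample, 16 were hit in tumours only and 8 also in a tail, with 30 tumours and 12 tails. Some sites rest on few reads, such as the Foxo1 site chr3:52291799-52291858, where both insertions had 2 reads. The sites show what the transposons landed on in the members' introns. Sequences are from the GRCm38 plus strand, 5′ to 3′, with the target motif in capitals.
Foxo1 PB, intron 1, chr3:52271566-52271625: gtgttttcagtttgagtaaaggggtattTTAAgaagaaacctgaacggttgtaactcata
Foxo1 PB, intron 1, chr3:52291799-52291858: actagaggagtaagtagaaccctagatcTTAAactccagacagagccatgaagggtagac
Foxo1 PB, intron 1, chr3:52334396-52334455: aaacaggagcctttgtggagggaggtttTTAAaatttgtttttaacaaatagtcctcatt
Foxo1 SB, intron 1, chr3:52342860-52342919: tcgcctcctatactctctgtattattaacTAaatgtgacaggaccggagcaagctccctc
Pax5 PB, intron 5, chr4:44669759-44669818: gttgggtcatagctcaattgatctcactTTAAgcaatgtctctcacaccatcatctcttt
Pax5 PB, intron 5, chr4:44673216-44673275: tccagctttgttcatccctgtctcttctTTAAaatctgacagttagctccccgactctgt
Pax5 SB, intron 5, chr4:44664054-44664113: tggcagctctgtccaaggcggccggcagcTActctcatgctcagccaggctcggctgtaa
Bach2 PB, intron 3, chr4:32373424-32373483: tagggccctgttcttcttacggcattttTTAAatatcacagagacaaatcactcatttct
Bcl11a PB, intron 2, chr11:24131797-24131856: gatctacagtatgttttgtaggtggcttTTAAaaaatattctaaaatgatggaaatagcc
Foxp1 PB, intron 10, chr6:98998045-98998104: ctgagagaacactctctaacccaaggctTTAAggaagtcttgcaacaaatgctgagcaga
A wider form of the target motif was common at SB insertions. In the members' SB positions, 51.2% of 43 in tumours and 56.2% of 32 in tails read ANNTANNT, against 10.3% of the 90695 TA sites of these genes. In PB, TTTAAA was found at 22.4% of 352 tumour positions and 22.8% of 92 tail positions, against 17.3% of 9222 TTAA sites. Both strands give the same result, since both motifs are their own reverse complement. Tumours and tails of a system were thus close in this respect, and no test was made.

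Foxo1 stood highest of the members in tumours relative to tails, in both systems. The gene spans chr3:52268337-52350109 (GRCm38, plus strand, 81.8 kb) and holds 512 TTAA and 4641 TA sites. In the 30 PB tumours it had 0 to 4 insertions per sample (median 1), 36 in all, and 21 tumours were hit. In the PB tails there were 2 insertions, 1 in tail 4 and 1 in tail 8, and the other 10 tails had none. Per 1000 insertions of a sample this was 0.234 ± 0.252 (SD, n = 30) for the tumours, against 0.0236 ± 0.0551 (SD, n = 12) for the tails. The other 9 tumours were at 0 like most tails, so the groups overlapped.

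**Figure D1:**
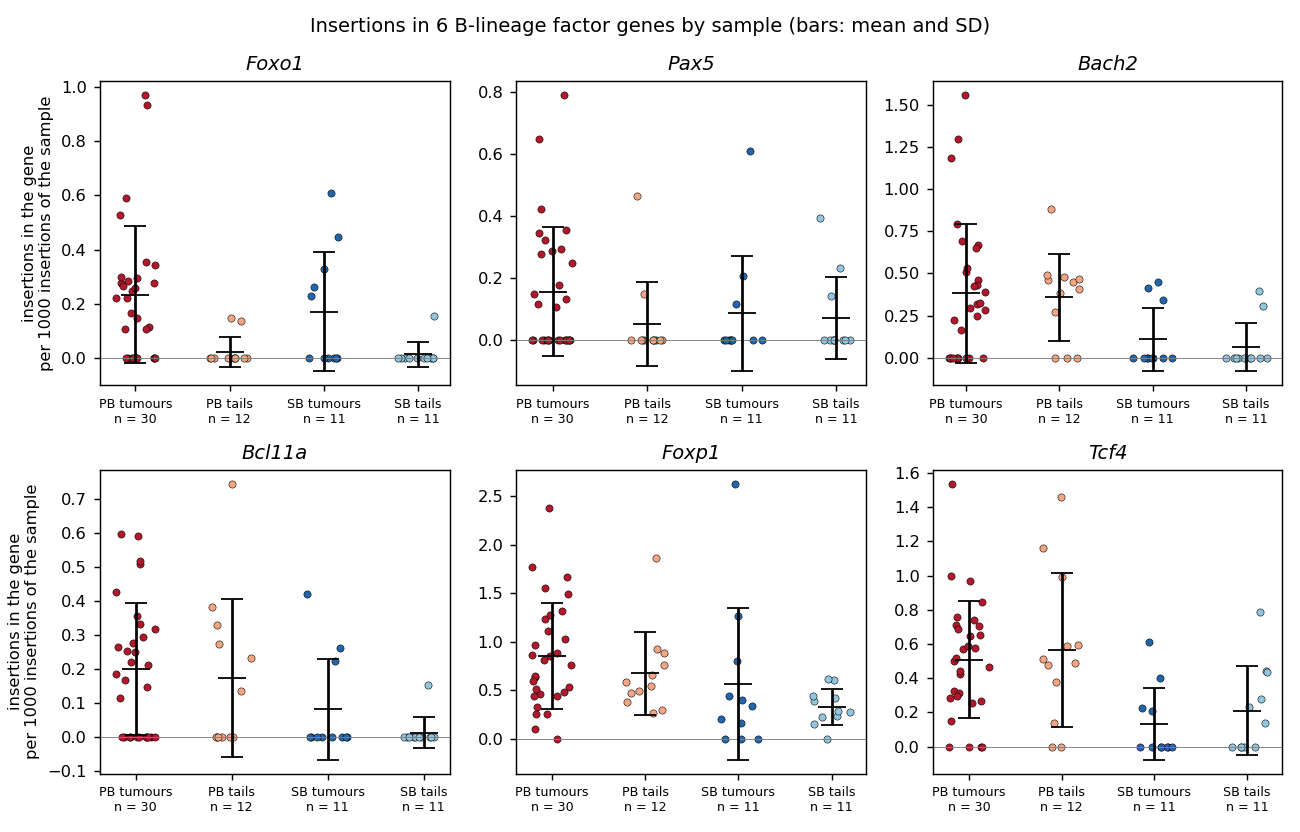
Insertions in 6 member genes per 1000 insertions of the sample (vertical axis, linear) in each of the 4 groups; each point is a sample, and bars give the mean and SD. For Foxo1 most PB tumours lie above 0 and the tails near 0, with a mean of 0.234 in PB tumours and 0.0236 in PB tails, while for Foxp1 and Tcf4 the PB groups overlap over most of their range.

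Pooled over samples, Foxo1 took 2.29 of every 10000 insertions in PB tumours and 0.416 in PB tails, a ratio of 5.52 (95% counting interval 1.42 to 47.3). Across samples, the log2 fold change was 1.95 (SE 0.85) by edgeR's quasi-likelihood test, unadjusted p = 0.00332. After Benjamini-Hochberg adjustment over the 3306 genes tested, p was 0.063, so Foxo1 did not pass. None of the 6 members tested did, where 147 of all genes (4.45%) were called and 652 (19.7%) had an unadjusted p under 0.05, among them Foxo1 and Pax5. The median log2 fold change of all genes was 0.20, to which the members' values should be read. By the change itself Foxo1 ranked 152 of 3306.

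The call for Foxo1 turned on choices near the threshold. Foxo1 passed with TMM scaling (adjusted p = 0.033, where 5.17% of all genes were called) and in DESeq2 (adjusted p = 0.027, 2.6% called), both of which raised the median of all genes to 0.40, and with a minimum of 30 insertions per gene (adjusted p = 0.031, 13.7% called). It also passed without PB tail 4 (adjusted p = 0.048) or PB tail 8 (adjusted p = 0.041), the tails that carried its insertions. Within sample names written as 1 word, which may mark a batch, 16 of 22 tumours and 1 of 5 tails were hit. Within names with separators it was 5 of 8 tumours and 1 of 7 tails. The edgeR log2 fold change was 1.81 and 2.14 in these subsets, with adjusted p of 0.314 and 0.265. With insertions of at least 10 reads, 11 insertions in 10 tumours stood against 1 in 1 tail, and the log2 fold change was 1.55 (edgeR adjusted p = 0.136).

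Counted as samples hit, Foxo1 was found in 70% of PB tumours and 16.7% of PB tails (two-sided Fisher's exact test, p = 0.0024, adjusted p = 0.193). No member passed in this test either, in which 7 of 3306 genes (0.212%) were called. By the site of the tumour, Foxo1 was hit in 5 of 6 spleens, 6 of 9 mesenteric masses and 4 of 6 mesenteric lymph nodes of PB mice.

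In SB, Foxo1 was also hit more often in tumours than in tails, but with few insertions. There were 8 insertions in 5 of 11 SB tumours, against 1 insertion in 1 of 11 SB tails, or 1.83 and 0.197 per 10000 insertions, a ratio of 9.27 (95% counting interval 1.24 to 412). Tumours 2 and 9 had 1 insertion each and tumours 3, 5 and 11 had 2 each. The sum of 9 was below the minimum of 10 insertions, so Foxo1 was not in the main test of SB. With no minimum, the log2 fold change was 2.11 (edgeR unadjusted p = 0.00697, adjusted p = 0.427 over 9940 genes). One TA, the SB site shown above in intron 1, was hit on the plus strand in SB tumours 2 and 3, with 56 and 20 reads. These 2 samples shared 44 insertions in all, 1.15% of the smaller sample and the highest share of 231 SB pairs (median 0.0688%). Counted as distinct positions, SB tumours had 7. With at least 10 reads, 3 insertions in 3 SB tumours and 0 in SB tails were left, and both insertions at the shared TA were among the 3.

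All 8 Foxo1 insertions in SB tumours and 33 of 36 in PB tumours lay in intron 1, which covers 75.6 kb and holds 94.3% of the gene's TTAA sites. The other 3 PB insertions were in the 3′ UTR exon. The SB insertions were on the strand of the gene in 7 of 8 cases. In PB tumours 19 of 36 were (sign-flip permutation test over samples, p = 0.87). The most covered insertion of all members was in Foxo1, at the PB site chr3:52334396-52334455. It had 1512 reads in PB tumour 14, a mesenteric node, which was 1.5% of that sample's reads and rank 11 by reads among its 3210 insertions. The same TTAA was hit in PB tumour 20 with 2 reads, on the other strand.

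Pax5 came next in the PB comparison. The gene spans chr4:44524748-44710694 (minus strand, 186 kb) and holds 655 TTAA sites. PB tumours had 0 to 4 insertions per sample (median 0.5), 25 in 15 of 30 tumours, and PB tails had 2, in tails 1 and 8. The other 15 tumours and 10 tails were at 0. The ratio per 10000 insertions was 3.83 (95% counting interval 0.956 to 33.4), and the log2 fold change was 1.45 (SE 0.89, edgeR unadjusted p = 0.0298, adjusted p = 0.189). In the alternatives with an adjusted p, it ran from 0.10 to 0.59. With at least 10 reads, 8 insertions in 5 tumours and 2 insertions in 2 tails were left, and the log2 fold change was 0.76. The difference was thus smaller among the better covered insertions. In SB, tumours and tails had 3 insertions each, in 3 samples each.

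Most Pax5 insertions of tumours lay nearer the start of the gene than those of tails, of which there were few. In PB tumours 18 of 25 lay before the midpoint of the gene, with a median at 40.9 kb from its start, and 1 of them was 0.502 kb upstream of it. The 2 PB tail insertions were at 132 and 139 kb, in intron 7, which also held 5 of the 25 in PB tumours, where the last lay at 138 kb. In SB, the tumour insertions were at 46.6, 46.6 and 81.4 kb and those of tails at 156, 156 and 160 kb, in intron 8. TTAA sites were spread evenly, with 53.4% before the midpoint. The difference in place was not tested. PB tumour 19, a spleen, held the most covered Pax5 insertion, with 517 reads or 0.625% of its reads. SB tumours 1 and 11 shared the SB site shown above, with 6 and 11 reads, and SB tails 4 and 10 shared another.

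**Figure D2:**
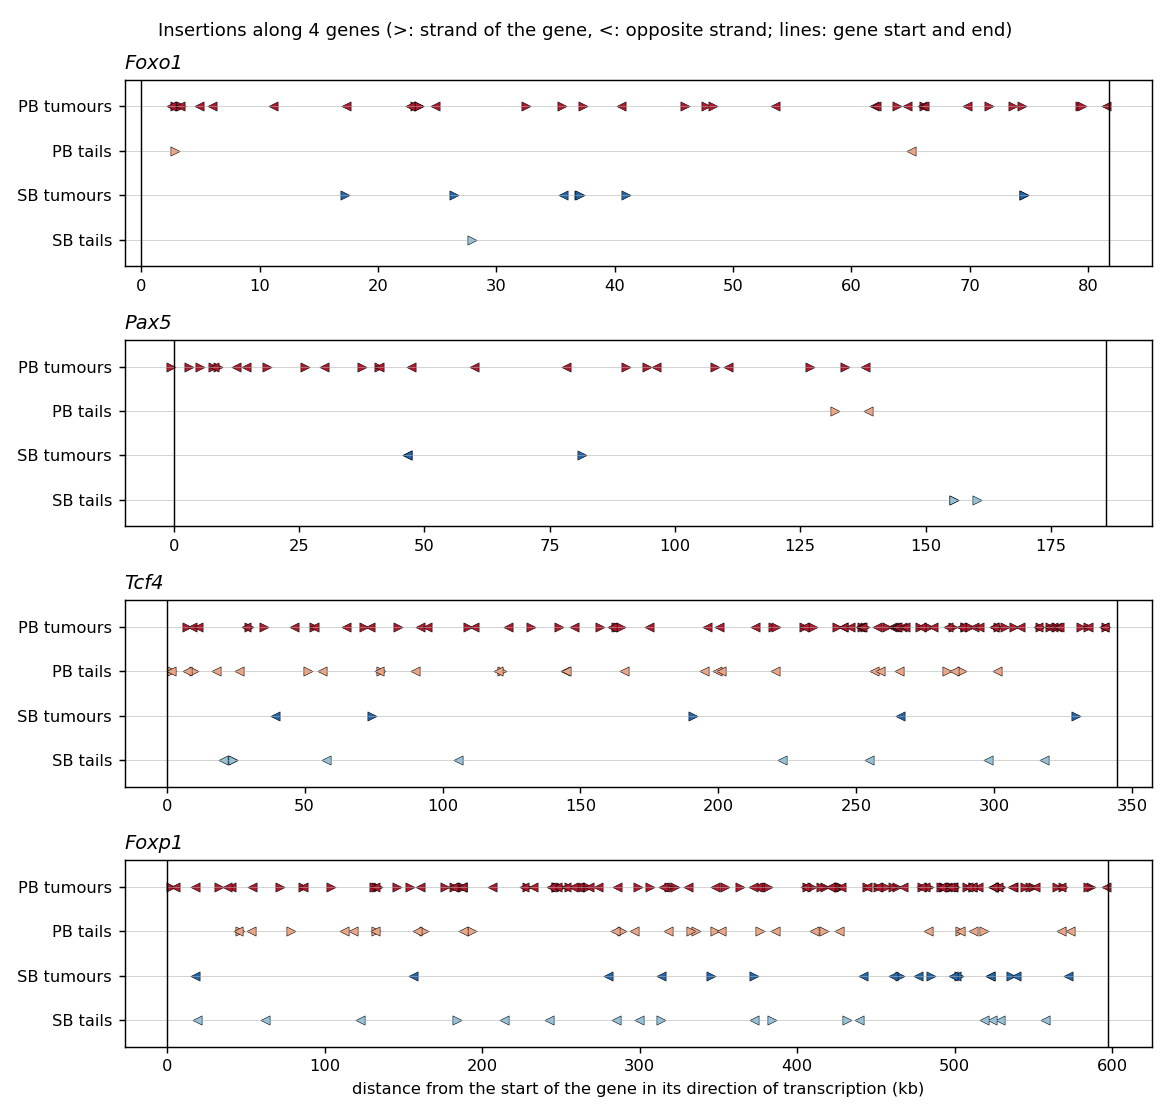
Insertions along Foxo1, Pax5, Tcf4 and Foxp1 by distance in kb from the start of the gene, with a row for each group; markers point right for the strand of the gene and left for the other, and vertical lines mark the gene's start and end. Foxo1 insertions run along intron 1, Pax5 insertions of tails lie in the 3′ part while most of those of PB tumours lie before the midpoint, and Tcf4 insertions of PB tumours gather in the 3′ part.

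For Bach2, Bcl11a, Foxp1 and Tcf4, as for Pax5, the interval of the ratio between PB tumours and tails spanned 1. None of them passed a test of tumours against tails. Bach2 spans chr4:32238413-32586109 (plus strand, 348 kb). It had 69 insertions in 20 of 30 PB tumours (0 to 14 per sample, median 1.5) and 19 in 9 of 12 tails (0 to 6, median 1). The log2 fold change was 0.14 (SE 0.44, edgeR adjusted p = 0.903), and the ratio of rates was 1.11 (95% counting interval 0.663 to 1.96). The tumour with 14 was PB tumour 3, and without it the log2 fold change was -0.046. By the introns of a predicted transcript, intron 3, which covers 184 kb and holds 54.4% of the gene's TTAA sites, took 34 of the 69 tumour insertions and 7 of the 19 tail insertions, and intron 2 took 25 and 10. In SB there were 6 insertions in 3 of 11 tumours and 2 in 2 of 11 tails, a ratio of 3.48 (95% counting interval 0.622 to 35.2), and with no minimum of insertions the log2 fold change was 1.23 (edgeR adjusted p = 0.427).

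Bcl11a spans chr11:24076564-24173558 (plus strand, 97 kb). It had 33 insertions in 19 of 30 PB tumours (0 to 4 per sample, median 1) and 10 in 6 of 12 tails (0 to 5, median 0.5). The ratio was 1.01 (95% counting interval 0.487 to 2.30) and the log2 fold change 0.03 (SE 0.57, edgeR adjusted p = 0.986). Tail 2 held the 5 insertions, and without it the log2 fold change was 0.68 (edgeR adjusted p = 0.594). Intron 2 took 21 of 33 tumour insertions and 8 of 10 tail insertions, with 73.2% of the gene's TTAA sites. In SB there were 4 insertions in 3 of 11 tumours and 1 in 1 of 11 tails, a ratio of 4.64 (95% counting interval 0.459 to 228), and with no minimum the log2 fold change was 1.32 (edgeR adjusted p = 0.427). The only coding-exon insertion of all members was a Bcl11a insertion of PB tumour 24, with 18 reads.

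Foxp1, the longest member (chr6:98925342-99522746, minus strand, 597 kb), was hit most often. It had 120 insertions in 29 of 30 PB tumours (0 to 10 per sample, median 3) and 32 in 12 of 12 tails (1 to 8, median 2). Per 1000 insertions this was 0.857 ± 0.547 (SD, n = 30) and 0.679 ± 0.427 (SD, n = 12), with a log2 fold change of 0.24 (SE 0.35, edgeR adjusted p = 0.761) and a ratio of rates of 1.15 (95% counting interval 0.773 to 1.76). The log2 fold change was 0.95 within joined names (edgeR adjusted p = 0.333) and -0.58 within separated names (edgeR adjusted p = 0.627). In SB there were 19 insertions in 8 of 11 tumours and 17 in 10 of 11 tails (log2 fold change 0.38, SE 0.56, edgeR adjusted p = 0.889). Foxp1 held the position hit most often. The TTAA within chr6:98998045-98998104 was hit in PB tumours 2, 3, 5 and 18, each time on the strand opposite to the gene, with 3 to 48 reads. The pairs of these samples shared 0.0972 to 0.648% of their insertions, where the median of 861 PB pairs was 0.170%. Strands in PB tumours were even, with 60 of 120 insertions on the strand of the gene.

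Among the genes of E proteins and their inhibitor, Tcf4 alone was hit often. Tcf4 lies on chromosome 18 (69343429 to 69687967, plus strand, 345 kb). It had 84 insertions in 26 of 30 PB tumours (0 to 8 per sample, median 3) and 27 in 10 of 12 tails (0 to 5, median 1.5). The log2 fold change was -0.09 (SE 0.39, edgeR adjusted p = 0.921), and its sign turned with TMM scaling (0.18) and in DESeq2 (0.27). The ratio of rates was 0.954 (95% counting interval 0.612 to 1.53). In SB there were 5 insertions in 4 tumours and 9 in 6 tails (log2 fold change -0.54, SE 0.84, edgeR adjusted p = 0.881). In PB tumours 26 of 84 insertions lay before the midpoint of the gene and in PB tails 16 of 27, where 50.3% of the TTAA sites lie. This difference was not tested. Tcf3 spans chr10:80409541-80433976 (minus strand, 24.4 kb) with 55 TTAA sites. It had 3 insertions, 1 each in 3 PB tumours, with 2, 5 and 18 reads, and none in the other groups. Id3 (chr4:136143822-136145392, 1.57 kb) holds 3 TTAA and 55 TA sites, on which 0.0345 insertions were expected in all PB tumours. Its count of 0 therefore carries no information, and the 0 insertions of Tcf3 in PB tails allow a share of up to 0.00623% of insertions.

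Against the number expected from motif sites, 6 of 8 members were called as hit in excess in PB tumours and 3 of 8 in PB tails. The expected number was the insertions of the chromosome multiplied by the gene's share of its TTAA or TA sites, as in the simplified model called TransmicronNULL. This model leaves out the preference of PB for genes and open chromatin. The authors reported fewer genes called once such preferences were modelled, and took the removed calls as putative false positives. Their fuller model was not run here, so an excess over sites may include such a preference. The test was a one-sided Wald test with Bonferroni correction for genes hit in at least 3 samples, which called 1120 of 22209 genes (5.04%) in PB tumours. Insertions were counted here within RefSeq gene spans and not by the deposited gene name, so Pax5 had 24 in PB tumours in place of 25. Foxo1 led with 36 observed and 5.66 expected, a ratio of 6.36. Ratios of Bach2, Bcl11a, Pax5, Foxp1 and Tcf4 were between 3.13 and 3.77. With at least 10 reads Pax5 was not called (7 observed, 2.74 expected, adjusted p = 1, 2.16% of genes called), and the other 5 were. Tcf3, with 3 observed and 0.662 expected (ratio 4.53, 95% counting interval 0.934 to 13.2), was not called, except with Benjamini-Hochberg adjustment (adjusted p = 0.033, 12.9% of genes called). In PB tails the members called, where 283 genes (1.27%) were, were Bcl11a (ratio 4.52, adjusted p = 0.021), Tcf4 (3.21) and Foxp1 (2.85). The call of Bcl11a was lost with at least 10 reads (adjusted p = 0.98, 0.869% of genes called) and with an exact Poisson test (adjusted p = 1, 0.374%), while Tcf4 and Foxp1 kept theirs. Bach2 had a ratio of 2.71 in tails (adjusted p = 0.156), and was called there with Benjamini-Hochberg adjustment only (3.98% of genes called). Foxo1 and Pax5 had 1.12 and 0.833 there, with 2 insertions each. The exact Poisson intervals of the tumour and tail ratios overlapped for Bach2, Bcl11a, Foxp1, Tcf4 and Pax5. For Foxo1 they were 4.45 to 8.80 in tumours and 0.135 to 4.03 in tails. Over genes with more than 2 expected insertions the median ratio was 1.23 in PB tumours and 1.11 in PB tails. The 90th percentile of these genes was 3.28 in PB tumours and 2.70 in PB tails. In PB tumours Bach2, Pax5, Foxp1 and Tcf4 lay below it, and Foxo1 and Bcl11a above it.

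In SB tumours 1 of 8 members was called, where 94 of 23496 genes (0.4%) were. It was Foxo1, with 8 observed and 1.31 expected (ratio 6.09, adjusted p = 0.0038), although an exact Poisson test, which called 0.14% of genes, did not call it. In SB tails none was called, where 43 genes (0.183%) were. Tcf3 and Id3 had no SB insertion. The ratios of Tcf4 were 0.754 in SB tumours and 1.08 in SB tails, below its PB ratios of 3.27 and 3.21. For Bach2 they were 0.945 and 0.322 in SB and 3.13 and 2.71 in PB. A difference between the systems in these ratios was not tested. Scored by samples hit and not by insertions, Foxo1 alone of the members was called in PB tumours, where 2.24% of genes were.

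**Figure D3:**
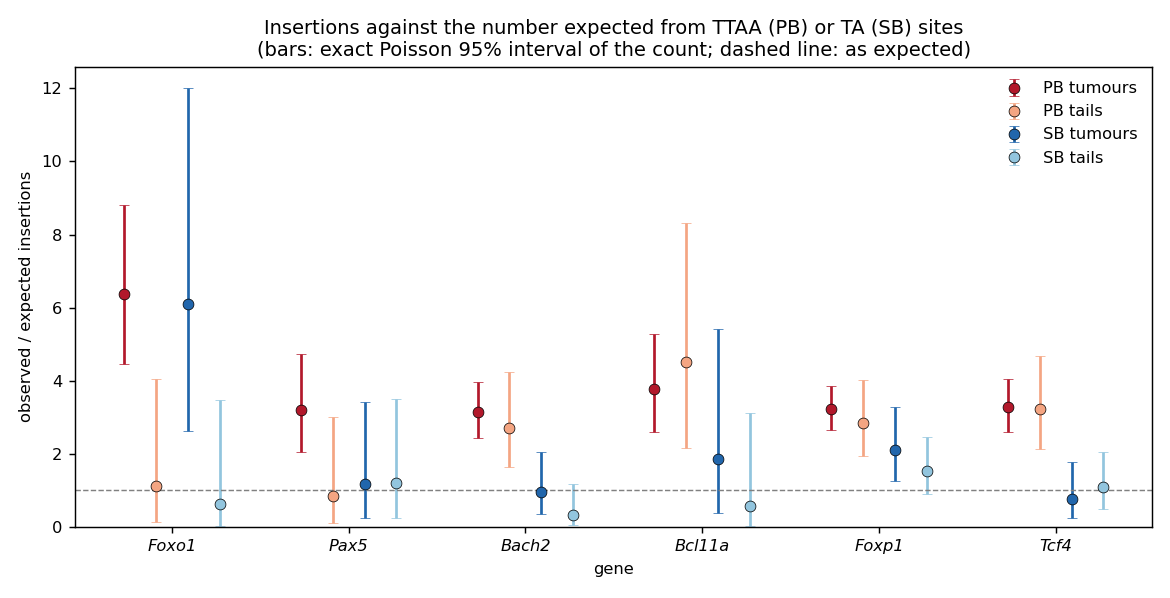
Observed over expected insertions (linear axis from 0) of 6 members in the 4 groups, with exact Poisson 95% intervals of the count as bars and the expected value as a dashed line at 1. Foxo1 is near 6 in the tumours of both systems and near 1 or below in the tails, while Bach2, Bcl11a, Foxp1 and Tcf4 have like ratios in PB tumours and PB tails.

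The change from tails to tumours was also compared between the systems. None of the 6 members tested differed after adjustment by edgeR's interaction term, and none of all 4292 genes did (0%), where 391 (9.11%) had an unadjusted p under 0.05 and DESeq2 called 0. For Foxo1 the difference of log2 fold changes, PB minus SB, was -0.23 (SE 1.82, edgeR adjusted p = 0.9998). With an SE of this size, neither a difference nor its absence was shown. In the main test of SB alone, 2 members had enough insertions, Foxp1 and Tcf4, and neither passed, where 9 of 1124 genes (0.801%) did. Neither passed on samples hit in SB, where 1 gene (0.089%) did.

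Reads gave another view of the same insertions. No member's share of a sample's reads passed the test between PB tumours and tails (two-sided permutation test of the mean, 163 of 3306 genes or 4.93% called, all lower in tumours). For Foxo1 the share was 0.0581% ± 0.277 (SD, n = 30) for tumours, against 0.00133% ± 0.0034 (SD, n = 12) for tails (permutation test, adjusted p = 0.666), and most of the tumour mean came from PB tumour 14. With ranks of the share, Foxo1 did not pass either (permutation test, adjusted p = 0.094, 61 of 3306 genes or 1.85% called). In SB neither Foxp1 nor Tcf4 passed, where 2 genes (0.178%) did. The median insertion had 5 to 8 reads in PB tumours for Foxo1, Pax5, Bach2, Bcl11a, Foxp1 and Tcf4 and 12 to 21 in PB tails. This was not particular to the members. Over all insertions, the median share with fewer than 10 reads was 55.2% in PB tumours and 22.2% in PB tails. No member insertion was among the 10 most covered of its sample. Of 370 member insertions in PB tumours, 4 were among the 50 most covered of their sample, 1 each in Foxo1, Pax5, Tcf4 and Foxp1. It was 0 of 92 in PB tails, 0 of 45 in SB tumours and 0 of 33 in SB tails. By definition 50 insertions per sample rank so high, in PB tumours out of 156899 insertions in 30 samples. A difference from that share was not tested.

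**Figure D4:**
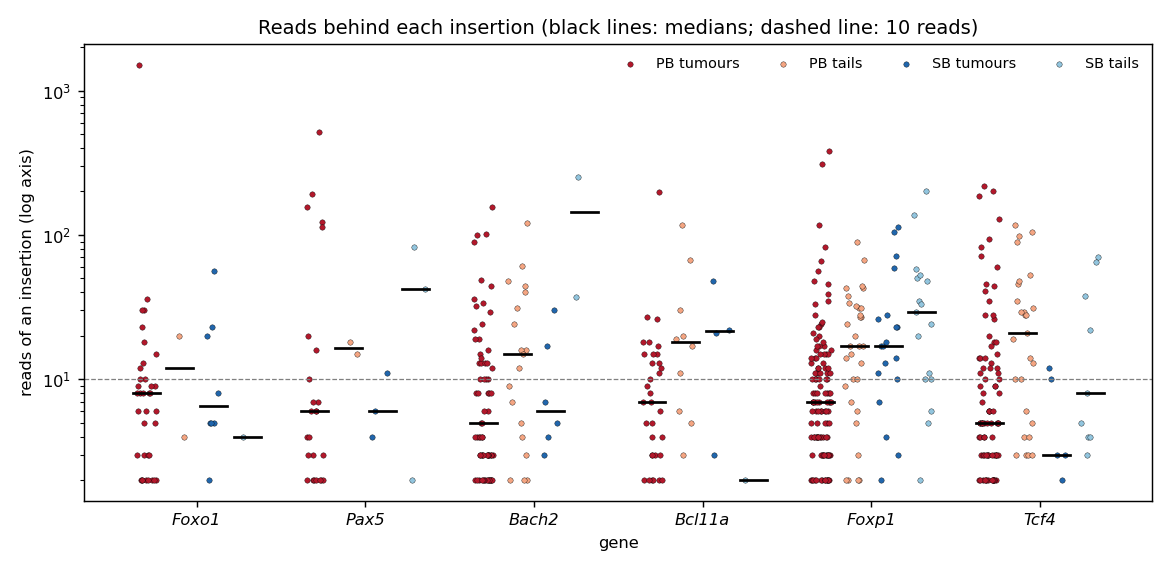
Reads of each insertion (log axis) in 6 members by group; each point is an insertion, black lines are medians, and the dashed line marks 10 reads. Medians of PB tumours lie between 5 and 8 reads, below those of PB tails, and single insertions reach 1512 reads in Foxo1 and 517 in Pax5. Low read numbers were also more common in PB tumours than in PB tails over all insertions.

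Strand was examined next. In PB tumours none of the 6 members with at least 20 insertions passed the sign-flip permutation test over samples, nor did any of 993 genes (0%), where 26 (2.62%) had an unadjusted p under 0.05 and an exact binomial test called 1. The share on the strand of the gene was between 42.4% (Bcl11a, 14 of 33) and 56.5% (Bach2, 39 of 69). No member reached 20 insertions in SB tumours. Of the 540 insertions, 526 lay in introns, 11 in UTR exons, 1 in a coding exon, and 1 each just upstream and downstream of the gene. In PB, 50 of 462 member insertions (10.8%) were at a position hit in more than 1 sample, compared with 8.90% of other insertions. In SB it was 8 of 78 (10.3%), compared with 1.37%, but those 8 fell on 4 positions only.

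Samples differed in how many members were hit. PB tumours had insertions in 1 to 7 of the 8 genes (median 5) and PB tails in 2 to 5 (median 3). This number can rise with the insertions of a sample, whose median was 4283.5 in PB tumours and 3547.5 in PB tails. PB tumour 13, with 757 insertions, had 1 member hit. The part of depth in this difference was not tested. SB tumours and tails had a median of 2 each. The members together took 2.35 ± 0.919 (SD, n = 30) of 1000 insertions in PB tumours. In PB tails it was 1.85 ± 0.748 (SD, n = 12).

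Of 45 related genes, also listed with earlier results of these data known, 12 reached 10 insertions in PB. Of the 12, 2 were higher in tumours, where 71 of 3306 genes (2.15%) were. These were Pou2f1 and Pou2f2, which encode octamer-binding factors. Pou2f1 had 68 insertions in 22 of 30 tumours and 4 in 3 of 12 tails (log2 fold change 2.05, SE 0.65, edgeR adjusted p = 0.014), and did not pass with RefSeq gene bodies (edgeR adjusted p = 0.070), with no minimum of insertions (edgeR adjusted p = 0.098), within separated names (edgeR adjusted p = 0.324) or with the first number of the sample name as a block (edgeR adjusted p = 0.053). Pou2f2 had 52 insertions in 10 of 30 tumours and 0 in tails, at least 5.32-fold higher when 3 insertions over all tails are taken as the floor (edgeR adjusted p = 0.00025). It did not pass in DESeq2 (adjusted p = 0.158) or within joined names (edgeR adjusted p = 0.109). None of the related E and Id proteins (1 of 4 tested), forkhead factors (2 of 6), BACH, BCL11 and small MAF proteins (1 of 5), paired box factors (0 of 2) or B-cell genes under their control (1 of 13) passed. The median log2 fold change of the 12 was 0.35, against 0.20 for all genes. In SB, 4 related genes were tested and none passed.

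Over the 30 PB tumours, the gene on another chromosome most like a member in insertions per 1000 was Psmd14 for Foxo1 (Pearson r = 0.64 among 492 genes), Nr3c1 for Bach2 (r = 0.67 among 489), Ankrd17 for Foxp1 (r = 0.61 among 490) and Prim2 for Bcl11a (r = 0.50 among 482). These values are the highest of many, over sparse counts of samples that also differ in depth.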

How the data were processed

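Insertions in tumours and tails were measured by QiSeq, in which junctions of transposon and genome are amplified from sheared DNA by splinkerette PCR and read in pairs on a MiSeq. The authors deposited a table with the position, strand, gene and raw read count of each insertion on mm10 (GRCm38). The aligner, caller and read filters are not given in the sources used here. A further per-sample column (1 column), a coverage scaled to the sample's maximum, was not used.

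The members, gene lists and tests were chosen with earlier results of these data known. Positions off a motif were moved to a TTAA or TA within 5 bp, and an insertion counted once per sample and position. Chromosome 14, taken as the donor since it had the most insertions per length, and the sex chromosomes were left out. No line had fewer than 2 reads, and 423 lines had gene names turned into dates by a spreadsheet, which cannot be read. Gene spans and sequences came from RefSeq (GRCm38.p6).

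Insertions per gene were tested with edgeR's quasi-likelihood test, with the sample's insertions as library size, for genes with at least 10 insertions in the system. The SE is that of the coefficient before edgeR draws sparse genes toward 0. Read shares used 100000 permutations. All p-values were adjusted over all genes tested, and 0.05 was the threshold. Each sample was treated as 1 mouse, since the sample names all differ, but the labels do not state it. Related genes were named where they passed, and likeness was sought among genes with at least 30 insertions in the PB tumours. The gene most like Tcf4 is not reported here. Scripts were tested on simulated data. Alternatives covered scaling, filters, the read minimum, annotation, name form and leaving out each sample. Analyses of names with separators only, and with the first number of the name as a block, were added after the data had been seen. Python 3.11.15 (numpy 2.4.6, pandas 2.3.3, scipy 1.17.1, matplotlib 3.10.9) and R 4.3.3 (edgeR 4.0.16, DESeq2 1.42.0) were used.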

Additional observations from a re-analysis of the deposited data

How the results depend on the processing

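The labels name no pairs of tumours and tails, but the first number in the sample names, whose meaning is not given, was shared by both in 6 of 11 cases in PB and 4 of 8 in SB. With it as a replicate block, 0 members passed in PB and 0 in SB, and 78 genes were called in PB in place of 147. The log2 fold change in PB was then 1.77 for Foxo1 (edgeR adjusted p = 0.20), 1.30 for Pax5 and -0.23 for Bcl11a, whose sign turned. Across the alternatives, 506 of 565 member values kept their direction and side of the threshold. Many of the 565 came from fits that left out 1 sample only, and those of Id3 were 0 in every setting. The count therefore says little about how stable the results are. Of the insertion tests in PB, 0 members passed in the main analysis, and 1, Foxo1, with DESeq2, TMM factors, at least 30 insertions, or without PB tail 4 or 8. Leaving out samples in turn, the number of members past the threshold ranged from 0 to 1, and the log2 fold change from 1.81 to 2.37 for Foxo1, 1.30 to 1.97 for Pax5, -0.046 to 0.42 for Bach2, -0.15 to 0.68 for Bcl11a, 0.12 to 0.51 for Foxp1 and -0.24 to 0.10 for Tcf4. The count of all genes called was 147, against 86 with DESeq2, 71 without a filter, 33 within joined names and 28 within separated names. In SB it was 9, against 2 with DESeq2 and 27 with all chromosomes. The interaction called 0 genes, and 1 with at least 10 reads.

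Members near no change turned sign. For Tcf4 in PB the log2 fold change was 0.27 with DESeq2, 0.18 with TMM, 0.27 within joined names and 0.0098 with name form as covariate. For Bcl11a it was -0.55 within joined names and -0.089 with the covariate, and within separated names it was -0.58 for Foxp1 (0.95 within joined names) and -0.40 for Bach2. The interaction was 0.48 for Foxo1 and 0.40 for Foxp1 with DESeq2, 0.43 for Foxp1 within joined names and 0.20 for Bach2 with at least 10 reads. With at least 10 reads the percentage of tumours minus that of tails hit was -15.0 for Tcf4 and -8.33 for Bcl11a. The read share of Tcf4 within joined names differed by 0.00943 percentage points. Ratios to the motif expectation with at least 10 reads were 1.18 for Pax5 and 0.779 for Foxo1 in PB tails, 0.677 for Tcf4 in SB tails and 0.67 for Pax5 in SB tumours.

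Against motif sites, scoring samples hit left 1 member called in PB tumours (Foxo1) and 0 in PB tails. In SB tumours 0 members were called with at least 10 reads, the exact Poisson test or samples hit, and 2 with Benjamini-Hochberg adjustment (Foxo1 and Foxp1). Of all genes, Benjamini-Hochberg adjustment called 2863 in PB tumours, 884 in PB tails, 305 in SB tumours and 167 in SB tails, the exact Poisson test 647, 83, 33 and 13, and samples hit 497, 95, 16 and 9. With at least 10 reads 479 genes were called in PB tumours. Samples hit called 40 genes with at least 10 reads, 1 within joined and 0 within separated names of PB. Read shares called 30 genes within joined names and 61 by rank in PB, and 1 within joined names in SB. Strand called 1 gene by the exact binomial test and 1 with at least 10 reads. The cause of these differences was not tested. At this depth Id3, with 3 TTAA sites, gives no usable rate, and that of Tcf3 rests on 3 insertions.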
